A study of Mus musculus with 6 samples.

Results

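The killer cell lectin-like receptor genes are the genes whose symbol starts with Klra to Klrk: 27 of the 31253 genes in the deposited count matrices, 11 of them Klra genes. All 27 lie on chromosome 6 of the mouse (build GRCm38, GENCODE M21), and 25 of them form one block of 2.638 Mb, chr6:128609227-131247362, which runs from Klrb1a to Klra2. Klrg1 and Klrg2 lie outside it on the same chromosome. The members follow from their symbols, with no measured value in the rule, and they were counted in peripheral blood mononuclear cells of male mice aged 12 to 13 weeks, with 3 libraries from control mice (Con, intraperitoneal saline) and 3 from mice made diabetic with intraperitoneal streptozotocin (T2D), a toxin of the insulin-producing beta cell. The series title adds a high-fat diet to the diabetic model. The labels do not give the strain, the diet of the controls or whether a library holds 1 mouse or several, so a p-value here speaks only of how these libraries vary, and that variation may be technical. Each library is a single-cell whole-transcriptome library read from the 3′ end of the messenger RNA (BD Rhapsody), in which each molecule carries a unique molecular identifier (UMI).

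Natural killer (NK) cells and some T cells read the surface of other cells with receptors of this family. The Ly49 receptors (Klra genes) and the heterodimers of CD94 (Klrd1) with NKG2 chains (Klrc genes) bind class I molecules of the major histocompatibility complex, the NKR-P1 receptors (Klrb1 genes) bind Clec2 proteins, and NKG2D (Klrk1) binds ligands that stressed cells display. Inhibitory members recruit phosphatases through a tyrosine motif in their tail, and activating members signal through the adaptors DAP12 (Tyrobp) or DAP10 (Hcst), so that the balance of both kinds sets whether the cell responds.

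After removal of low-quality barcodes and predicted doublets, 47469 cells were kept. A library held 7151 to 8670 of them, and its median cell had 2790 to 3203 UMIs. NK cells were gated as cells with at least 2 UMIs of Ncr1 and Klrb1c together and no UMI of Cd3d, Cd3e or Cd3g (924 cells). Effector T cells had at least 2 UMIs of Ccl5 and a Cd3 UMI (3960 cells), and gamma-delta T cells had a UMI of Trdc and a Cd3 UMI (846 cells); 35.96 to 43.2% of the gamma-delta cells of a library were also in the effector T gate. All 7 NK markers were detected in the NK gate, where their summed level was 18286.7 to 22879.6 CPM (UMIs of the genes per 1000000 UMIs of the gate), against 1784.6 to 3311.0 in the effector T gate. Transcripts of red cells were higher in T2D than in Con libraries in all 3 gates (in NK cells 75.9 to 119.4 against 190.2 to 3135.9 CPM), and their part in the results below was not tested. Summed over all pairs of libraries, 1147 shared barcodes were found among the 49407, against 1148.3 expected if labels had been drawn at random.

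The family accounted for 93348 UMIs, 0.059% of all UMIs of the kept cells. NK cells held 40.8% of them and effector T cells 35.3%, followed by other T cells with 10.4% and gamma-delta T cells with 5.37%. Members differed in where they lay. Klrb1a (76.6%), Klrb1b (74.8%), Klra4 (74.5%), Klri2 (73.9%) and Klra8 (72.5%) had most of their UMIs in the NK gate. Klra6, the gene of Ly49F, had 81.7% of its UMIs in effector T cells and 11.2% in NK cells, and Klrc1, the gene of the inhibitory chain NKG2A, had 70.7% and 22.6%. Klrd1, the partner chain of NKG2A, was the member with the most UMIs (24007), with 18.3% in NK cells, 39.3% in effector T cells and 29.4% in other T cells. Klra2, the gene of Ly49B, stood apart with 56.6% of its 5878 UMIs in Csf1r-positive cells, a gate for the monocyte lineage, and 0.09% in NK cells. Klrg2, Klrb1, Klrc3, Klra17, Klri1, Klrh1, Klra5 and Klra10 had few UMIs in all, from 6 for Klrh1 to 503 for Klra17.

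**Figure D1:**
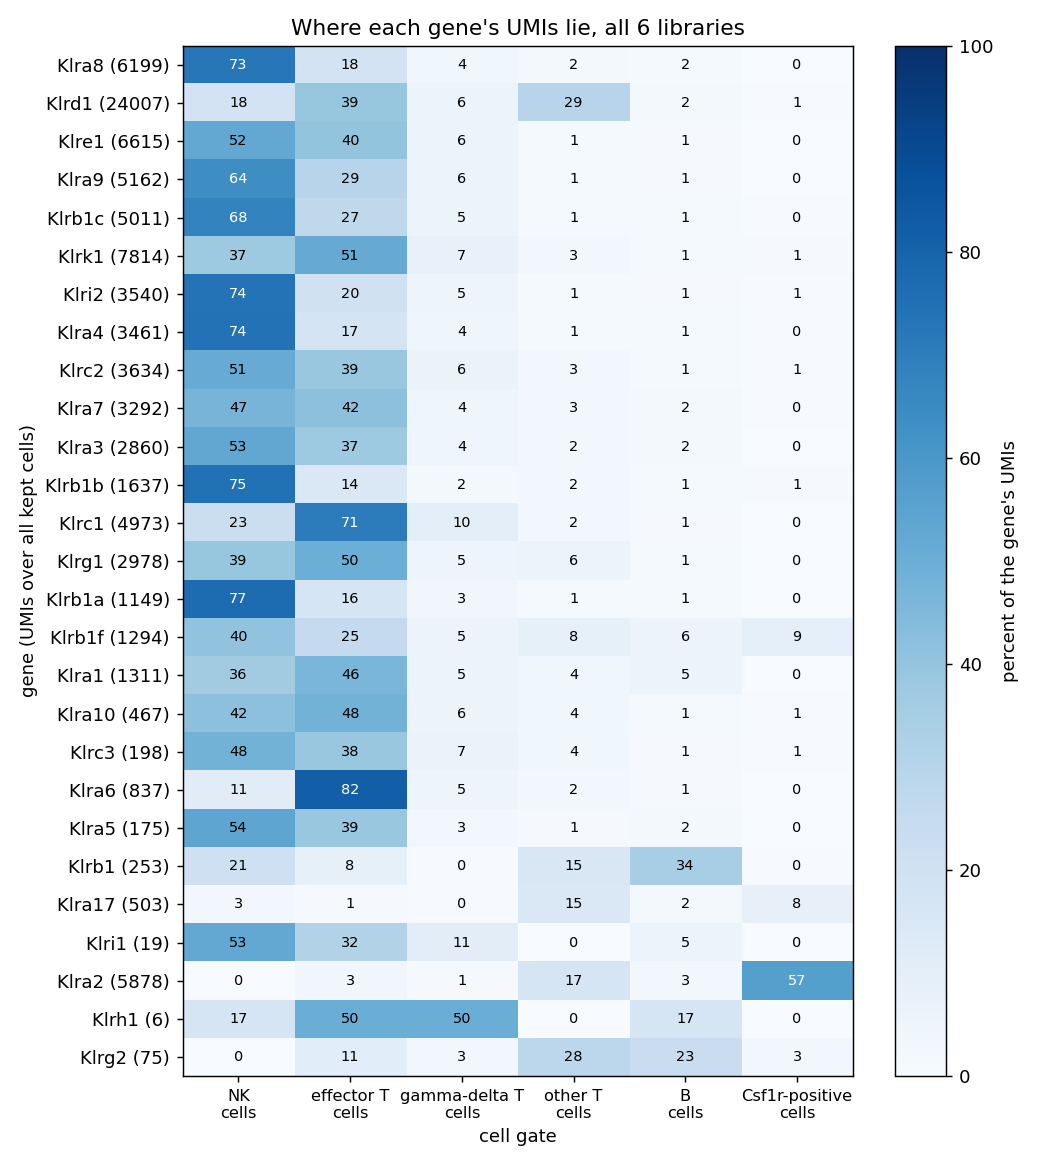
Percent of each gene's UMIs (all 6 libraries, number of UMIs in brackets) that lie in each of 6 cell gates; rows follow the mean level in NK cells, and a row can pass 100 because effector and gamma-delta T cells share cells. Most rows are dark in the first 2 columns, Klra6 and Klrc1 are darkest in effector T cells, and Klra2 is darkest in Csf1r-positive cells.

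The NK cells carried the family at a far higher level than the T cells. Summed over the 26 members other than the gate gene Klrb1c, the level in NK cells was 11984, 11629 and 11829 CPM in the Con libraries and 12167, 12026 and 11421 CPM in the T2D libraries, so the 2 groups overlapped. The same sum was 1594 ± 204 CPM (SD, n = 3) in Con and 1781 ± 176 CPM in T2D effector T cells, and 1467 ± 353 and 1257 ± 99.3 CPM in gamma-delta T cells. With the library as a block, edgeR's quasi-likelihood test called 18 of the 19 members tested other than the gate gene Klrb1c higher in NK cells than in effector T cells, where it called 21.2% of all genes tested higher. The difference ran from 1.02 ± 0.24 (log2, SE; adjusted p = 0.020) for Klrc1 to 4.95 ± 0.13 (adjusted p = 1.02e-17) for Klrb1b, the gene of the inhibitory NKR-P1B. Klrc1 kept its direction (0.88 to 1.23) but was not called without Con 2, Con 3, T2D 2 or T2D 3 (highest adjusted p = 0.0602). Klra6 was the exception, at -0.32 ± 0.18 (adjusted p = 0.163), and it was called lower in NK cells, at -0.57, where the NK gate rested on Ncr1 alone. The level depended on the edge of the gate: cells with 2 UMIs of Ncr1 and Klrb1c, just inside, held the other members at 10828 CPM (67 cells), and cells with 1 UMI, just outside, at 1081 CPM (280 cells). At the edge of the effector T gate, cells with 2 UMIs of Ccl5 held them at 394 CPM and cells with 1 at 258 CPM.

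**Figure D2:**
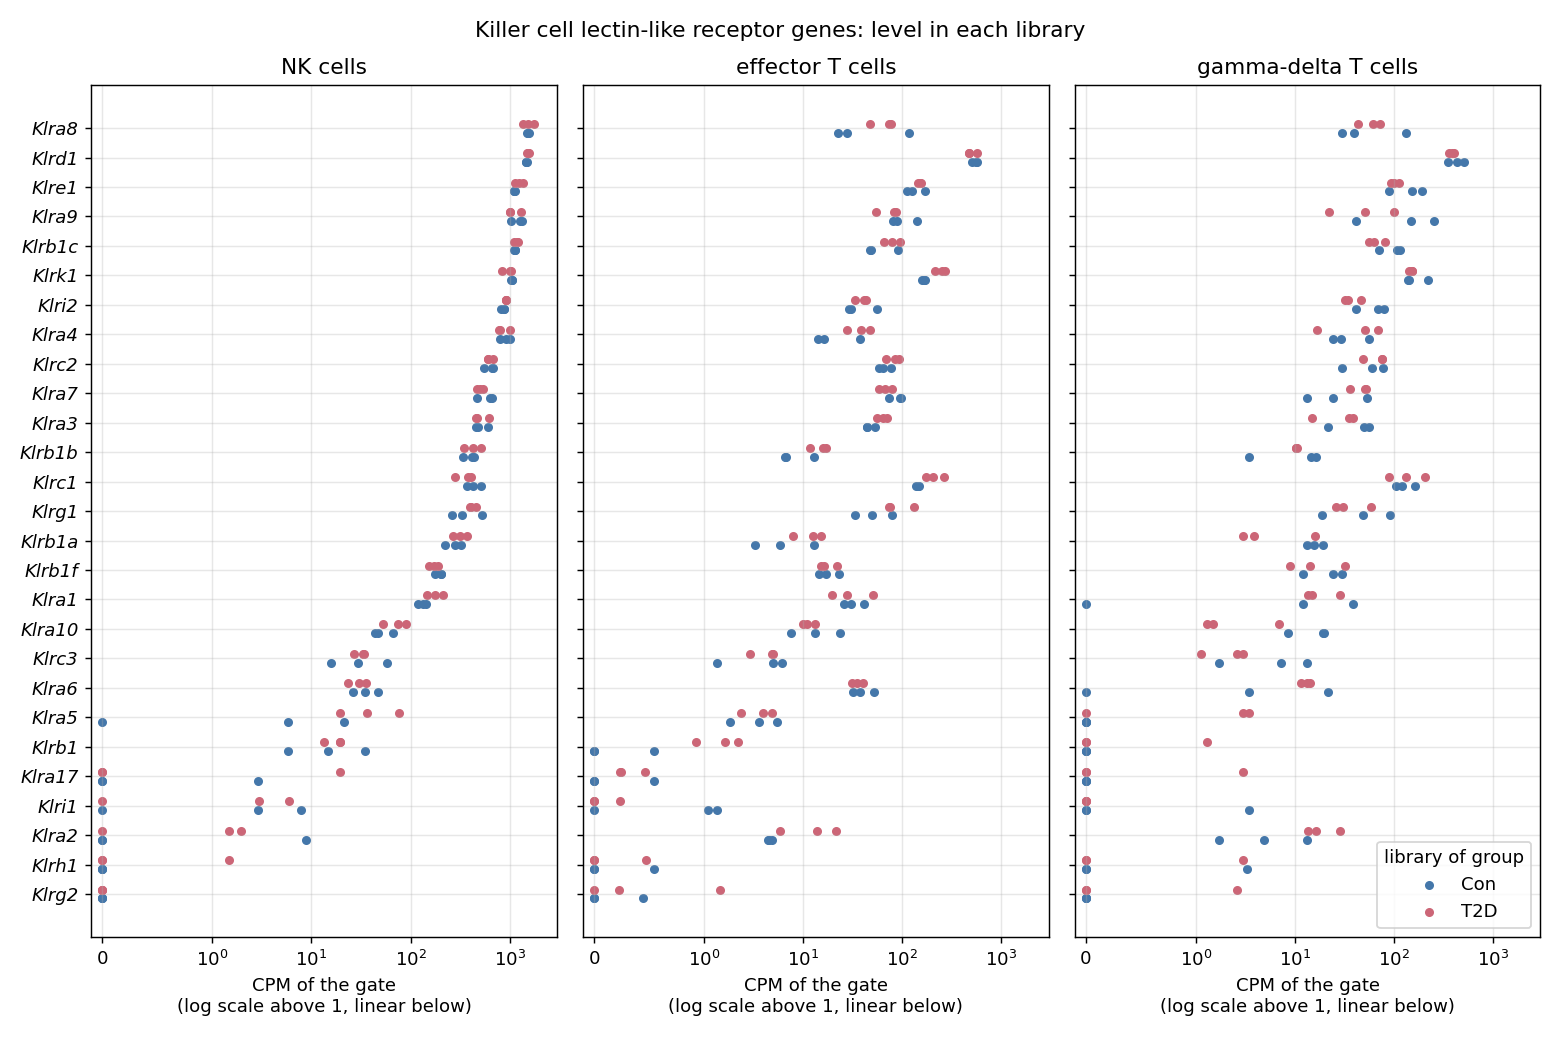
Level of each of the 27 genes in CPM of the gate (log axis above 1, linear below), one point per library, Con in blue and T2D in red, with genes ordered by their mean in NK cells. In NK cells the points of the top 17 genes lie between 120 and 1751 CPM, and the groups overlap for all of these but Klrd1, Klri2 and Klra1; in the T cell gates the same genes lie lower and spread more.

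In NK cells, none of the members differed between T2D and Con past the threshold, an adjusted p under 0.05 over all genes tested. Of the 27 members, 20 passed the filter on low counts; edgeR called 0 of these 20, of which 19 are not the gate gene Klrb1c, against 0.369% of all genes tested, DESeq2 called 0, and 2 of the 20 had an unadjusted p under 0.05. Their median log2 fold change was 0.02, and that of all genes tested was 0.00. Sums over marker lists of other cell types moved with the groups in the NK gate. The 5 B cell markers, all detected, summed to 496.5 to 674.4 CPM in Con and 360.9 to 396.3 CPM in T2D. Of an innate lymphoid list (Il7r, Gata3, Rora, Kit, Tmem176b and Cd200r1), 6 of 6 genes summed to 302.9 to 344.5 and 181.9 to 286.0 CPM. Their part in these values was not tested, and Cd3d, Cd3e and Cd3g were at 0 by the gate.

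The 6 members with the highest levels in NK cells show how close the libraries lay. Klra8 encodes Ly49H, an activating receptor known for recognising mouse cytomegalovirus, and measured 1483, 1517 and 1548 CPM in Con and 1751, 1539 and 1348 CPM in T2D. Its T2D range enclosed the Con range, and its log2 fold change was 0.03 (95% interval -0.17 to 0.22). Klrd1 (CD94) measured 1477, 1445 and 1463 CPM in Con and 1564, 1525 and 1480 CPM in T2D. These groups did not overlap, but the difference was 0.06 (interval -0.13 to 0.24; adjusted p = 0.938). Klre1, a chain that pairs with Klri1 or Klri2, measured 1115, 1092 and 1136 CPM against 1240, 1346 and 1125 CPM, and T2D 3 lay within the Con range. Klra9, the gene of the inhibitory Ly49I, measured 1328, 1028 and 1270 CPM against 1004, 1297 and 999 CPM. Klrb1c, the gene of NK1.1, is a gate gene and is given as a description, at 1115, 1136 and 1138 CPM against 1193, 1112 and 1219 CPM. Klrk1 (NKG2D) measured 1054, 1028 and 1051 CPM against 1029, 845 and 1012 CPM, with T2D 2 lowest, and its log2 fold change was -0.12 (interval -0.32 to 0.08; adjusted p = 0.843).

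The members with an unadjusted p under 0.05 in NK cells were Klrc1 and Klra1, picked here for that value. Klrc1 measured 517, 373 and 428 CPM in Con and 282, 379 and 404 CPM in T2D, a log2 difference of -0.31 ± 0.13 (adjusted p = 0.551). Klra1, the gene of the inhibitory Ly49A, measured 120, 134 and 143 CPM against 211, 178 and 145 CPM, a difference of 0.43 ± 0.17 (adjusted p = 0.486). The Con and T2D libraries overlapped for Klrc1 and did not for Klra1. Klra5, the gene of Ly49E, did not pass the filter, with 94 UMIs in the gate; it was called at 2.26 without the filter and at 2.61 without T2D 3.

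**Figure D3:**
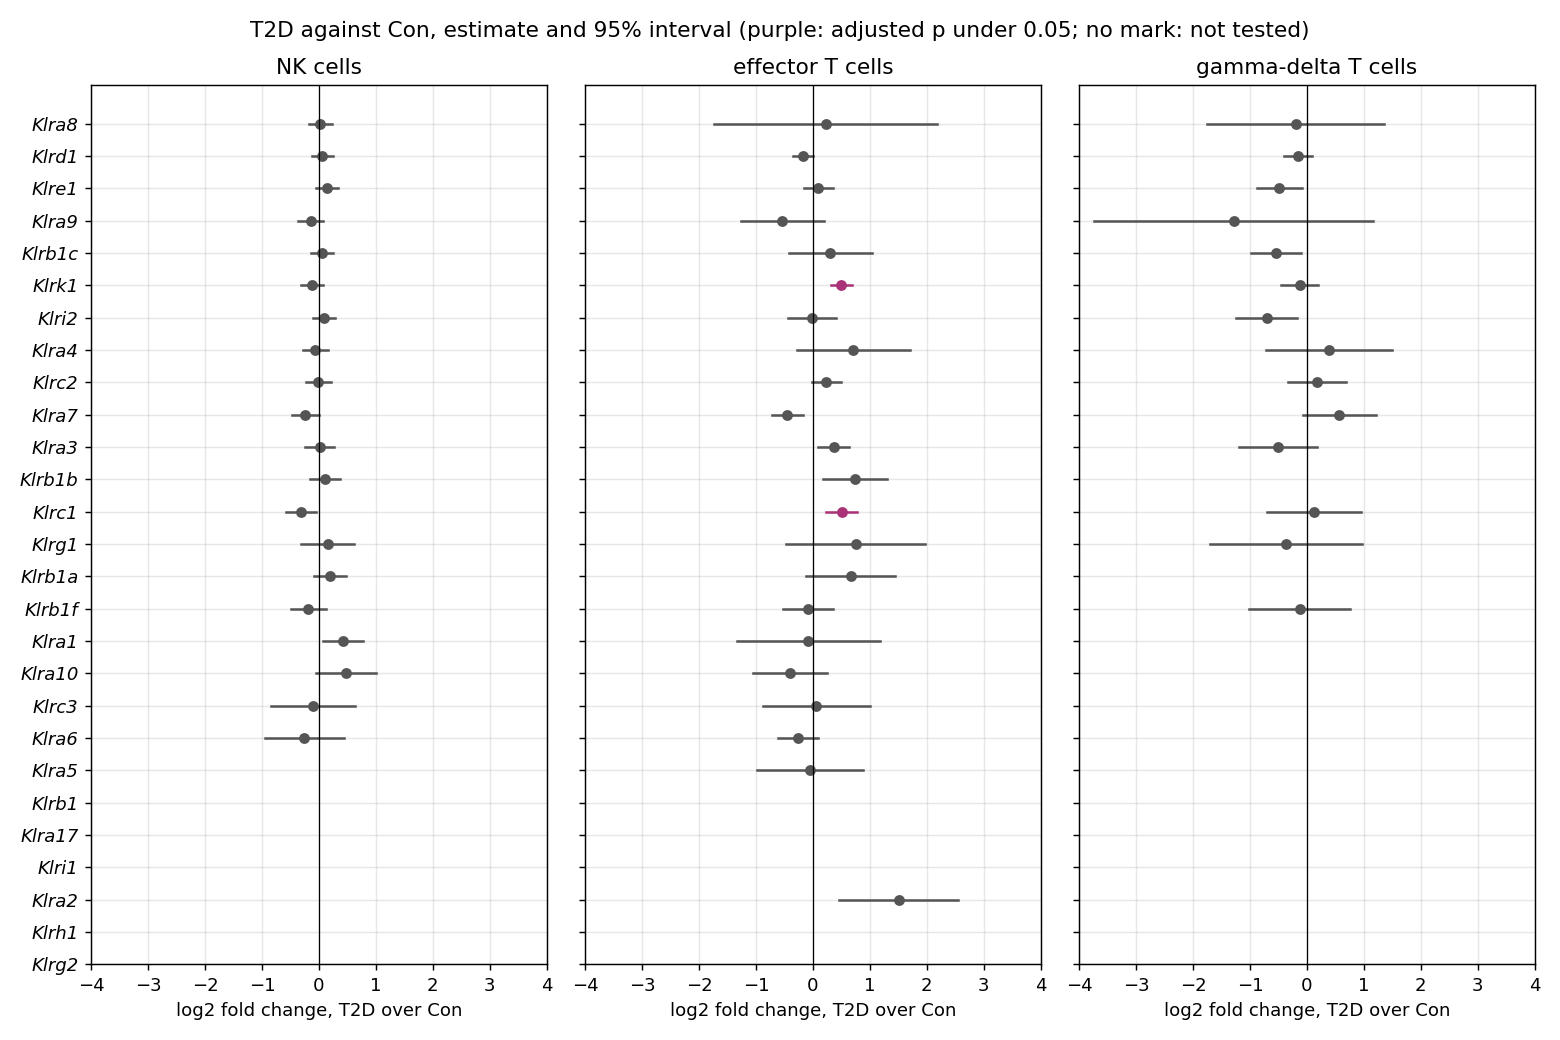
Log2 fold change of T2D over Con with its 95% interval for the members tested in each gate, with purple for an adjusted p under 0.05 over all genes. Klrk1 and Klrc1 in effector T cells are the purple marks, at 0.50 each; intervals are narrow in NK cells, where levels are highest, and wide for Klra8 and Klra9 in the T cell gates.

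Klrk1 and Klrc1 were higher in the effector T cells of the T2D libraries. Of the 22 members tested, edgeR called these 2, both higher, against 2.53% of all genes tested that were called higher. DESeq2 called 3 members, these and Klra2. The members' median log2 fold change was 0.16, that of all genes -0.01. Klrk1 encodes NKG2D, the activating receptor of stress ligands, and Klrc1 encodes NKG2A, the chain of an inhibitory receptor, so the pair holds one member of each kind. The level of Klrk1 was 170, 166 and 156 CPM in the Con libraries and 267, 215 and 249 CPM in the T2D libraries. Every T2D library lay above every Con library, and the log2 fold change was 0.50 ± 0.09 (edgeR adjusted p = 0.00161). Klrc1 measured 136, 148 and 145 CPM in Con and 262, 175 and 202 CPM in T2D. Again no T2D library reached down to the Con range, T2D 1 lay highest, and the log2 fold change was 0.50 ± 0.13 (adjusted p = 0.0351). Klrk1 stayed past the threshold whichever library was left out (0.42 to 0.57, highest adjusted p = 0.0224). Klrc1 kept its direction (0.32 to 0.62) but passed the threshold only without T2D 2; its adjusted p without each of the other 5 libraries was 0.0514 to 0.149. Reads of Klrc1 can be shared with its neighbours: 29.5% of the 75-base words in the last 500 bases of its transcripts also occur somewhere in transcripts of Klrc2 or Klrc3, while none of Klrk1 occur in another gene.

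The promoters of these genes are shown because Klrk1 and Klrc1 are near neighbours on the minus strand and both were higher, while Klrc2, the gene of the activating chain NKG2C, lies between them and did not pass the test (0.23 ± 0.12, adjusted p = 0.318). Each is the RefSeq window from 250 bases before to 50 after the gene's start, on GRCm38.p6, written 5′ to 3′ along the gene. Klrk1 covers chr6:129623815-129624114, Klrc1 chr6:129678924-129679223 and Klrc2 chr6:129660547-129660846, all on the minus strand. Capitals mark TGTGGT, the core of the RUNX site, or its reverse complement ACCACA.
Klrk1: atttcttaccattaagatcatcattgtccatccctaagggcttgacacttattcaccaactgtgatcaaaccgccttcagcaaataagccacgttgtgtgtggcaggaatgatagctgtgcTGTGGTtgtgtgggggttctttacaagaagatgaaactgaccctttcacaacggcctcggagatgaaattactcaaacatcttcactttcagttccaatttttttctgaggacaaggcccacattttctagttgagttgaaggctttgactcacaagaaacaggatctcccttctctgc
Klrc1: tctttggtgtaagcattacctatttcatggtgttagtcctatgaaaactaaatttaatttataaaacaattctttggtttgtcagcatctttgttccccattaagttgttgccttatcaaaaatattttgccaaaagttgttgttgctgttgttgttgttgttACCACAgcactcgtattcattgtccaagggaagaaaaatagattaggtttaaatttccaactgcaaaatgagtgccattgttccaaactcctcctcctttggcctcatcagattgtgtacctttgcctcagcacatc
Klrc2: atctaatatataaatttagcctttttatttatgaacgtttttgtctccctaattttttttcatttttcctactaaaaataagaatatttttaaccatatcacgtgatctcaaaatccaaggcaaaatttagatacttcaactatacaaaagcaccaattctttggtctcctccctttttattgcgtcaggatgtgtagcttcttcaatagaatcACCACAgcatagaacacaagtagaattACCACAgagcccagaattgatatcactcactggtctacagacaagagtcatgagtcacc
The Klrk1 and Klrc1 windows each hold the RUNX letters at 1 place and the Klrc2 window at 2. The same letters, searched on both strands, occur in 16.8% of 32851 RefSeq promoters of this length and in 9 of the 29 promoters found for 24 of the members. The T-box letters GGTGTG, whose last bases can run into TGTGGT, occur in 19.05% of all promoters and in 7 of the 29, and in none of the windows printed here. A match describes the letters and is not evidence of binding.

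Both genes were called higher in the effector cells with a UMI of Cd8a or Cd8b1 and neither in those without, a split added after the main values had been seen. In the cells with such a UMI Klrk1 measured 114, 132 and 117 CPM in Con and 245, 184 and 239 CPM in T2D, a log2 fold change of 0.80 ± 0.10 (adjusted p = 2.93e-05). Klrc1 measured 106, 130 and 130 CPM against 266, 171 and 219 CPM in the same cells, a change of 0.77 ± 0.15 (adjusted p = 0.0119), and Klrb1c was called there too, at 0.81. In both genes the lowest T2D library lay above the highest Con library. Over all genes, edgeR called 391 of 9476 in these cells with a Cd8 UMI. In effector cells without a Cd8 UMI, Klrk1 measured 424, 351 and 328 CPM against 333, 337 and 281 CPM, and the estimate had the opposite sign, -0.24 ± 0.14 (adjusted p = 0.574). Klrc1 was also lower there on average, 242 ± 32.1 against 196 ± 52.6 CPM (SD, n = 3), with an estimate of -0.32 ± 0.18 (adjusted p = 0.546). In the cells without a Cd8 UMI, edgeR called 23 of 7273 genes and 0 members, and 3 of the 19 tested members had an unadjusted p under 0.05; DESeq2 was not run on them. The difference between the cells with and without a Cd8 UMI was not tested. Effector cells with a Cd8 UMI and no Trdc made up 72.4 to 78.7% of the gate in Con and 69.3 to 72.6% in T2D, and cells with a Cd4 UMI but no Cd8 or Trdc made up 3.81, 4.16 and 4.48% in Con and 12.2, 6.45 and 11.4% in T2D. In these Cd4 cells, 13 to 21 per Con library, Klrk1 averaged 98.3 ± 83.5 CPM in Con and 99.8 ± 19.0 in T2D. Klrc1 averaged 40.1 ± 54.5 and 86.7 ± 48.0 CPM there. In cells with no Cd4, Cd8 or Trdc UMI, Klrk1 averaged 465 ± 200 and 519 ± 86.0 CPM. Klrc1 averaged 262 ± 100 and 231 ± 40.0 CPM there. The part of this make-up in the lower estimates without a Cd8 UMI was not tested. The summed level of the dividing-cell markers Mki67 and Top2a in the effector gate was 17.5 to 26.1 CPM in Con and 110.7 to 178.5 CPM in T2D. That of 6 of 6 genes of the innate lymphoid list was 1885.4 to 1945.4 and 1615.5 to 1775.4 CPM. Il7r alone averaged 1677 ± 30.3 CPM in Con and 1412 ± 29.7 CPM in T2D effector cells, so this second sum mainly follows Il7r. The part of either sum in the result was not tested. Without the effector cells that had a UMI of Klrb1c or Ncr1, Klrk1 was at 0.60 and Klrc1 at 0.67, both still called, and Klra9 was called lower, at -1.18 (adjusted p = 5.09e-04).

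**Figure D4:**
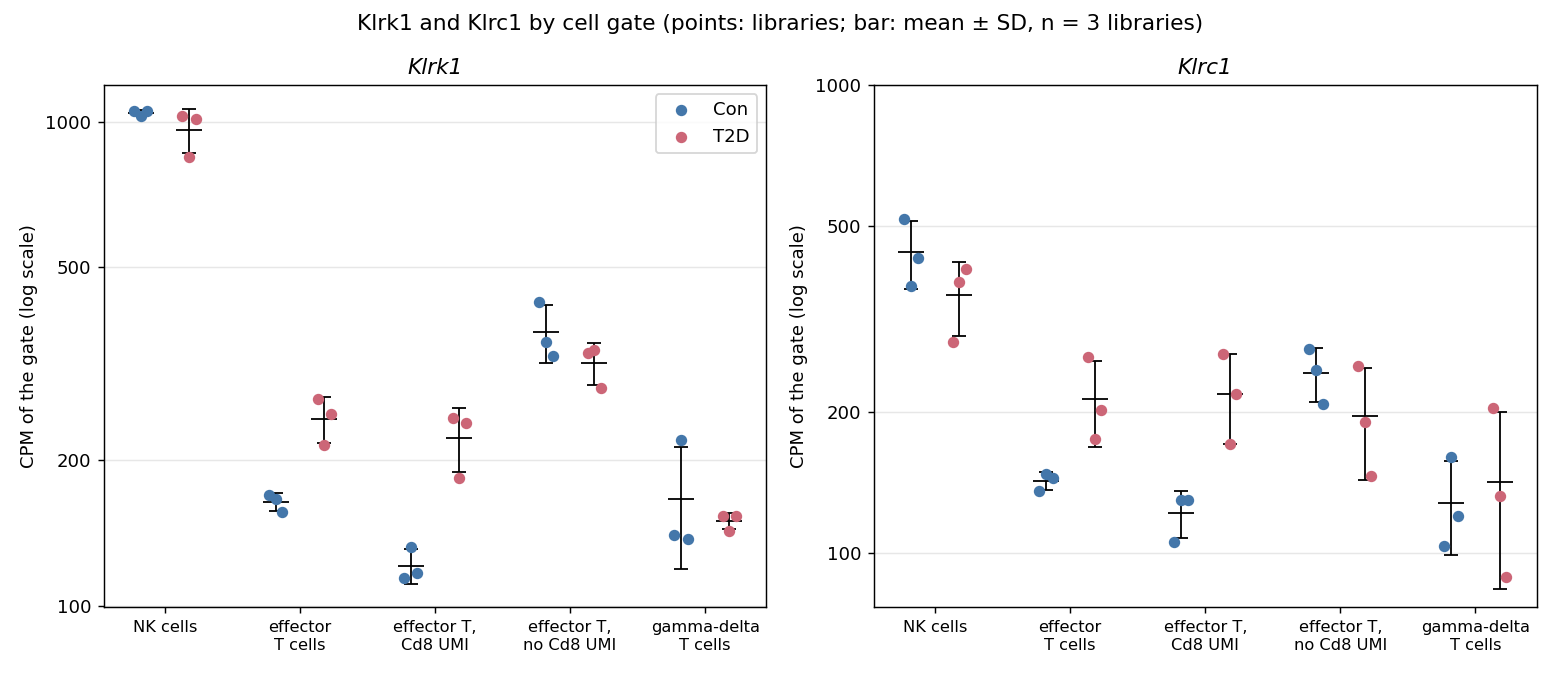
Level of Klrk1 and Klrc1 in CPM of each gate (log axis), one point per library, with mean and SD (n = 3 libraries per group). In effector T cells and in those with a Cd8 UMI the T2D libraries lie above all Con libraries; in NK cells, effector cells without a Cd8 UMI and gamma-delta T cells the groups overlap or T2D lies lower.

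The other leading members of effector T cells were not called in the main fit, though some were in other settings. Klrd1 measured 562, 556 and 507 CPM in Con and 565, 471 and 471 CPM in T2D (log2 -0.18 ± 0.08, adjusted p = 0.266). The estimate for this partner chain of NKG2A was thus below 0, and T2D 1 lay at the top of the Con range. Klre1 measured 170, 124 and 110 CPM against 156, 145 and 150 CPM, and the groups overlapped. Klra7, the gene of the inhibitory Ly49G2, measured 97, 73 and 95 CPM against 58, 79 and 67 CPM. Its estimate of -0.45 ± 0.13 lay at the threshold (adjusted p = 0.0507), and it was called without Con 2 (-0.57) and without T2D 2 (-0.59). Klra7 was also called lower with no filter on low counts, with the replicate numbers as a block and with at most 10% mitochondrial UMIs. The same held without cells with a Trdc UMI. It was not called by DESeq2, without TMM scaling or with predicted doublets kept. Klra9 measured 141, 81 and 88 CPM against 83, 54 and 86 CPM, a difference of -0.54 ± 0.28 (adjusted p = 0.412), with Con 1 highest. With the replicate numbers as a block, Klra9 was called lower (-0.53, edgeR adjusted p = 0.00113). Klra2 is named because DESeq2 called it (1.51, adjusted p = 0.0424). It measured 4.85, 4.38 and 4.48 CPM against 5.88, 13.9 and 21.5 CPM, without overlap, and edgeR gave 1.504 ± 0.48 (adjusted p = 0.105). Most UMIs of this gene lay in Csf1r-positive cells. All 4 genes of the monocyte list (Csf1r, Lyz2, Ly6c2 and Ace) were detected in the effector gate. They summed to 2400.9 to 2943.7 CPM in Con and 2877.1 to 3196.0 CPM in T2D. The sum was not split by gene, so it does not measure monocyte content. Without effector cells that had a UMI of Cd79a, Ms4a1, Csf1r or S100a8, Klra2 no longer passed the filter on low counts. The part of monocyte transcripts in the Klra2 value was not tested.

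Con 1 also stood high among the control libraries for other members of effector T cells, chosen here for that. Klra8 measured 117 CPM in Con 1 against 27 and 22 in Con 2 and Con 3, and 77, 47 and 73 in T2D. Klra4, the gene of the activating Ly49D, measured 38 CPM against 14 and 16, and 47, 28 and 39 in T2D. Without Con 1, edgeR called Klra8 (1.33), Klra4 (1.23), Klrb1b (1.08) and Klrb1c (0.65) besides Klrk1, 5 of the members, and no longer Klrc1. That fit called 367 of 10518 genes. With all 6 libraries the same test gave Klra8 0.23 ± 0.72 and Klra4 0.71 ± 0.40, neither called.

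The share of cells with a UMI was compared after each cell was thinned to 1500 UMIs. Thinning left out 18 of the Con and 27 of the T2D NK cells, 42 and 114 of the effector T cells, and 13 and 14 of the gamma-delta T cells. B cells (at least 2 UMIs of Cd79a, no Cd3 or Ncr1 UMI) gave the background: the highest share of a member there was that of Klrd1, 1.16 ± 0.01% in Con and 1.68 ± 0.37% in T2D (SD, n = 3). With 3 libraries against 3, the exact permutation test cannot go below p = 0.1, so only separation of the groups is described. In effector T cells the groups did not overlap for 5 of the 9 members that reached 10% of cells in some library, where 21.8% of all genes did not overlap. This 10% rule looks at the highest library, so a gene near 10% can pass through only the group where it is higher. The count is therefore a description and no evidence of a difference. Klrk1 was detected in 23.1, 16.3 and 17.9% of Con and 30.1, 24.4 and 25.5% of T2D effector cells. Klrc1 was detected in 17.5, 15.5 and 15.0% against 29.5, 22.3 and 21.2%. Both were thus found in more of the cells in every T2D library than in any Con library. Klrg1, an inhibitory receptor of late-stage effector cells, was detected in 6.94 ± 2.79% against 12.6 ± 3.13%, while its summed level did not pass the main test (0.75 ± 0.45, adjusted p = 0.490). It was called higher with the replicate numbers as a block (0.74, edgeR adjusted p = 1.24e-05). Klra9 and Klra7 lay lower in T2D, at 8.12 against 6.39% and 8.63 against 5.97%, and passed the 10% rule through Con libraries only. Unthinned, 4 of 11 members were separated (18.3% of all genes), and with predicted doublets kept 1 of 8 was, a smaller share than over all genes (684 of 3107). In NK cells 2 of 18 members did not overlap, against 12.6% of all genes, so the count lay near that share and is no evidence of a difference. They were Klra9 (55.6 ± 2.79% in Con, 49.6 ± 1.85% in T2D) and Klra7 (40.1 ± 2.95%, 35.0 ± 0.77%), both lower in T2D.

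The T2D effect was called different between the NK and the effector T gate for 1 of 23 members tested, Klrk1, where 0.633% of all genes were called. The effect in NK cells minus that in effector T cells was -0.62 ± 0.11 (log2; adjusted p = 0.00229), and it was called without each library in turn (-0.64 to -0.57, highest adjusted p = 0.0141). For Klrc1 the difference of the effects was -0.80 ± 0.30 (adjusted p = 0.525). Without Con 1, Klra4 (-1.36) and Klra8 (-1.31) were called as well, where 49 of 9271 genes were called.

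In gamma-delta T cells, 14 members were tested and edgeR called 0, against 0.350% of all genes. DESeq2 called 0, and 3 had an unadjusted p under 0.05. Klrd1 was the leading member, at 427, 503 and 347 CPM in Con and 406, 386 and 360 CPM in T2D. Klrk1 measured 140, 220 and 138 CPM against 153, 143 and 153 CPM, with Con 2 alone high. Klrc1 measured 104, 161 and 120 CPM against 204, 133 and 89 CPM, and its T2D range enclosed the Con range. Klre1 measured 191, 151 and 89 CPM against 112, 94 and 99 CPM, a difference of -0.49 ± 0.20 (adjusted p = 0.493), and was called without Con 3 at -0.78. Klra9 measured 256, 148 and 41 CPM against 51, 22 and 100 CPM, and Klrb1c 106, 115 and 71 CPM against 80, 63 and 56 CPM. Both overlapped between the groups, and the gate held 74 to 203 cells per library. Neutrophil markers in this gate were at 32.7 to 127.9 CPM in Con and 191.9 to 879.4 CPM in T2D (3 of 3 detected). T cell markers were at 5222.2 to 5375.3 and 5615.4 to 5860.5 CPM (9 of 9). Genes of the innate lymphoid list were at 1550.3 to 1768.3 and 1979.1 to 2120.7 CPM (6 of 6). Il7r alone averaged 1423 ± 151 CPM in Con and 1763 ± 102 CPM in T2D, most of that last sum. The part of these sums was not tested. The share of positive cells was separated between the groups for 0 of 6 members, against 10.9% of all genes.

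Single NK cells carried several of the genes at once. Of the 11 Klra genes, thinned NK cells had 2.49 ± 0.02 with a UMI in Con and 2.43 ± 0.12 in T2D (SD, n = 3), and 48.9 ± 2.77% and 46.9 ± 3.26% of the cells had 3 or more. Effector T cells had 0.382 ± 0.061 and 0.343 ± 0.008. A UMI count of 0 in such a cell does not show that the gene is silent. Reads of some Klra genes can also be assigned to another: 23.7% of the 75-base end words of Klra9, 23.5% of those of Klra10 and 11.6% of those of Klra3 occur somewhere in transcripts of other genes. The counts of genes per cell therefore bound the receptors carried in neither direction.

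**Figure D5:**
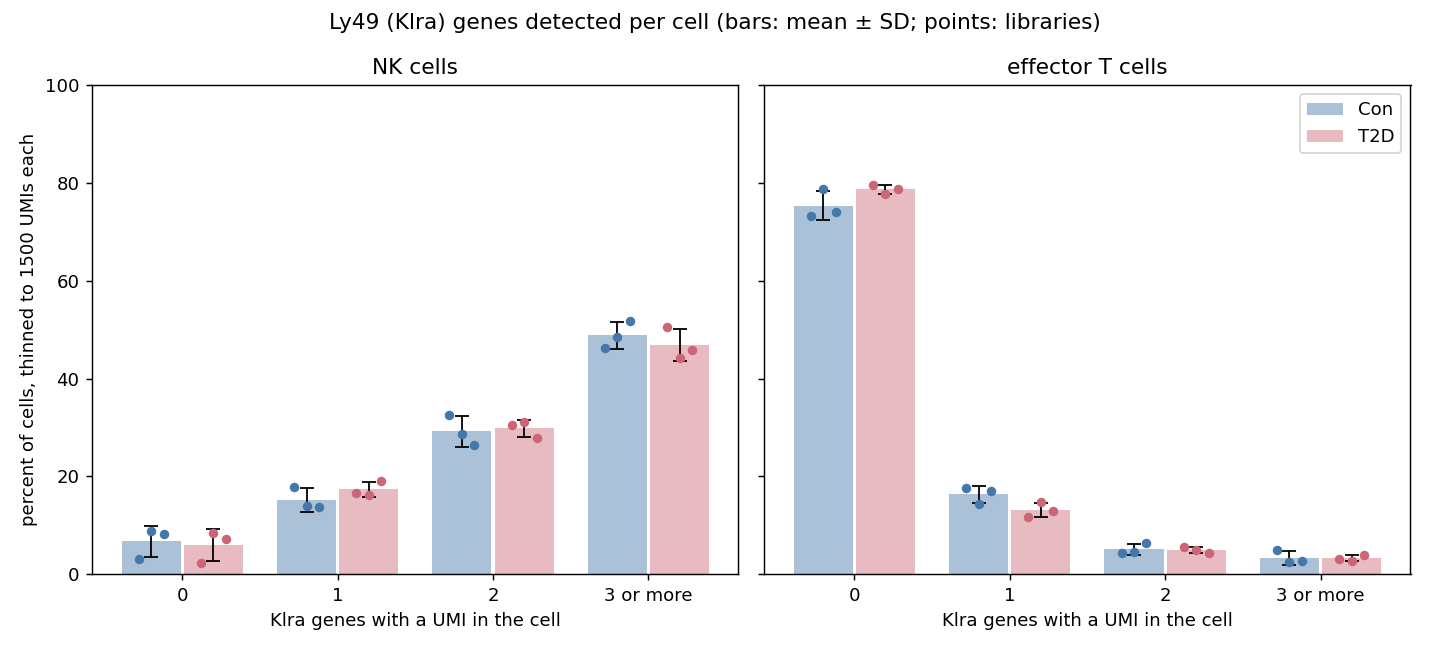
Percent of cells with 0, 1, 2 or 3 and more Klra genes detected, after thinning each cell to 1500 UMIs, in NK and effector T cells; bars are means with SD and points are the 3 libraries of a group. In NK cells the class of 3 or more is the largest in both groups (48.9 and 46.9%), whereas 75.3 and 78.7% of effector T cells have no Klra gene.

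Some pairs of receptors were found together or apart in all 6 libraries, as a description of pairs picked with results of these data in view. Klrc1 was detected in 24.9% of NK cells with a UMI of Klrc2 and in 43.4% of those without (means over the libraries), and was less frequent with Klrc2 in each of the 6. These are the inhibitory and the activating chain that compete for CD94, and end words of Klrc1 also occur in Klrc2 or Klrc3, as given above. Klra8 was detected in 41.9% of NK cells with Klrc1 and in 58.9% without, again lower in each library. Klra8 and Klra4 went together: Klra4 was detected in 53.6% of NK cells with Klra8 and in 33.7% without, higher in 6 of 6. Among effector T cells the genes that rose in T2D were also found in the same cells: Klrc1 was detected in 39.2% of cells with Klrk1 and in 14.5% without, higher in 6 of 6 libraries.

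Over all kept cells, where the number of cells and the level per cell cannot be told apart, the family was higher in T2D. The sum of all members was 449, 451 and 433 CPM in Con and 800, 625 and 726 CPM in T2D, a ratio of 1.61, with all T2D libraries above all Con libraries. Of 25 members tested, 12 were called, all higher, against 2.44% of all genes called higher. These were Klrb1a, Klrb1b and Klrb1c of the NKR-P1 genes, Klrc1, Klrc2, Klrd1 and Klrk1 of the NKG2 and CD94 genes, Klre1 and Klri2, and Klra3, Klra5 and Klra7 of the Ly49 genes. Klrc1 changed by 1.09 ± 0.15 (adjusted p = 0.0127) and Klrk1 by 0.94 ± 0.12 (adjusted p = 0.0115). Klra7 changed by 0.34 ± 0.08 (adjusted p = 0.0477). Fits that left out 1 library called 1 to 12 members in all (1 without Con 1 and 1 without Con 2), not always the same ones. Calls over all genes moved as well, from 613 of 13657 to 190 of 13913 without Con 1 and 81 of 13986 without Con 2. Klre1 (0.81 ± 0.08) was called in all 6 such fits, and Klra5 and Klra7 in 0 of them (lowest adjusted p = 0.0553 and 0.0866). Without the cells of the 3 gates, 1 member was called, Klrd1 at 0.48, where 70 of 13359 genes were called.

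The gates themselves were larger in T2D. NK cells made up 1.31, 1.55 and 1.48% of the kept cells in Con and 2.56, 1.88 and 2.77% in T2D. Effector T cells made up 4.64, 5.38 and 5.95% against 11.7, 10.4 and 11.02%, and gamma-delta T cells 1.39, 1.03 and 1.72% against 1.87, 1.98 and 2.57%. The groups did not overlap in any gate, and the two-sided exact permutation p was 0.1, the smallest possible. Shares of a whole depend on each other: among cells with a T or NK transcript, the NK share (4.16 ± 0.37 against 5.02 ± 0.75%, exact p = 0.2) and the gamma-delta share (3.95 ± 0.79 against 4.48 ± 0.46%, exact p = 0.5) overlapped, and the effector share did not (15.3 ± 1.02 against 23.2 ± 2.03%, exact p = 0.1). Set beside these ratios, 1.66 for NK and 2.07 for effector T cells among all kept cells, the summed level of the members other than Klrb1c within the gates differed by a ratio of 1.005 and 1.12.

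The adaptors and ligands of the family, chosen as lists with earlier results of these data known, held few calls within the gates. Of 17 adaptors and signalling genes, 0 of 17 tested were called in NK cells and 0 of 16 in gamma-delta T cells by edgeR or DESeq2, with 2 and 1 at an unadjusted p under 0.05. Among effector T cells 1 of 16 was called: Tyrobp (DAP12), the adaptor of activating Ly49 and NKG2C, rose from 99.0 ± 20.3 to 140 ± 10.6 CPM (0.44 ± 0.11, adjusted p = 0.0220). Tyrobp lost the call without Con 2, Con 3 or T2D 3 (highest adjusted p = 0.146). Of the ligand genes tested, 7 in NK cells, 9 in effector T cells and 7 in gamma-delta T cells, 0 were called by either tool, and the median log2 fold changes were -0.045, -0.036 and -0.036; the number with an unadjusted p under 0.05 was 0, 2 and 1. Of 16 genes of NK maturation, 2 were called in NK cells, where no member of the family was. Tcf7, a transcription factor of early stages, fell from 197 ± 52.8 to 86.0 ± 1.54 CPM (-1.19 ± 0.18, adjusted p = 1.04e-04), and was called without each library in turn. Cx3cr1, a chemokine receptor of late stages, rose from 190 ± 33.1 to 321 ± 74.7 CPM (0.75 ± 0.16, adjusted p = 0.0146), but was not called without Con 2, Con 3 or T2D 2. Other genes of the list were not called, such as Tbx21 (0.46), Zeb2 (0.09), S1pr5 (-0.05) and Cd27 (-0.20). A shift between stages was not tested. Tcf7 was far higher in effector T cells (1166 ± 57.2 CPM in Con), and the part of other cells in its NK value was not tested. Of the same 16 genes, 8 were called in effector T cells, where 518 of 9945 genes were called, 4 higher (Spn, Itgam, Cx3cr1, Cd226) and 4 lower, among them Tcf7, Il7r and Eomes. Spn, the surface protein CD43, rose by 0.60 ± 0.08 (adjusted p = 1.30e-04) and was called without each library in turn. Of the 6 fits that leave out a library, Eomes was called in 1, Itgam in 2, Cx3cr1 in 3, Cd226 and Il7r in 4 each and Tcf7 in 5.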

How the data were processed

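The authors deposited a matrix of UMI counts for each library, with genes as rows and cell barcodes as columns; per the submitters' processing notes CASAVA 1.8, UMI-tools, Seurat and the build mm10 were used, while aligner, annotation version and settings are not stated there. Barcodes below 200 detected genes or above 20% mitochondrial UMIs were dropped, and doublets predicted by Scrublet (scanpy 1.11.5, expected rate 0.06, score threshold 0.2787, the median of the libraries) were left out: 49025 of 49407 barcodes passed and 1556 were predicted doublets. The matrices held 23574052 to 32321855 UMIs per library. How the submitters filtered cells or treated doublets is not given there either, and no cell types were taken from the authors.

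UMIs were summed per library and gate, and the library is the replicate. Groups and library numbers come from the sample titles. Tests used edgeR 4.0.16 (TMM, filterByExpr, robust quasi-likelihood fit), with Benjamini-Hochberg adjustment over all genes tested; fold changes are log2, T2D over Con, and ± after one is its SE. Levels are CPM of the gate. Because 3′ UMI counts are 1 per molecule, they were not divided by gene length. Shares of cells used two-sided exact permutation tests, coded in Python 3.11.15 with numpy 2.4.6. DESeq2 1.42.0, other gates, filters and depths, a replicate block and leaving out each library were tried. The fits were tested on simulated counts. Members were named by a rule: those called in a gate and the 6 with the highest mean CPM there; others are named as chosen by their values. Members, gates and lists were chosen with earlier results of these data known. RefSeq promoters (GRCm38.p6) matched 24 of the 27 members. The values of 1 gene of the maturation list are not reported here.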

Additional observations from a re-analysis of the deposited data

Results flagged for a closer look

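The T2D effect on Klrk1 differed between cell types by a test of the difference itself: the log2 change in NK cells minus that in effector T cells was -0.62 ± 0.11 (edgeR interaction term with the library as a block, adjusted p = 0.00229). The change was -0.12 in NK cells, where the groups overlapped and T2D 2 was lowest, and 0.50 in effector T cells, where 3 of 3 T2D libraries lay above all Con libraries. Groups of 3 libraries are too small for a check on single libraries that stand apart.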

How the results depend on the processing

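In the 3 gates and over all kept cells, other settings moved the number of members called. In effector T cells (2 called, and 518 of 9945 genes) it was 5 with no filter on low counts (781 of 17145 genes). It was 4 without cells with a Trdc UMI (565 of 9831) and 0 in cells without a Cd8 UMI (23 of 7273). When 1 library was left out it was 1 to 5, with 172 to 517 genes called. In NK cells (0 called, and 23 of 6238 genes) it was 1 with no filter (37 of 13838), and 0 to 1 with a library left out (12 to 24 genes). In gamma-delta T cells (0 called, and 25 of 7135 genes) it was 0 to 1 with a library left out (13 to 39 genes). Over all kept cells (12 called, and 613 of 13657 genes) it was 1 without the cells of the 3 gates (70 of 13359). With a library left out it was 1 to 12, with 81 to 671 genes called. The number of members with different T2D effects in NK and effector T cells (1, and 57 of 9008 genes) was 1 to 3 with a library left out (27 to 73 genes). Members whose positive shares did not overlap in effector T cells (5 of 9, all genes 21.8%) were 2 of 5 at 1000 UMIs (23.8%) and 1 of 8 with predicted doublets kept (684 of 3107 genes); in gamma-delta T cells (0) there was 1 with doublets kept. For all of these the cause was not tested, beyond fewer libraries or cells where those were left out.

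Estimates of members that were not called changed sign in some settings. In NK cells these were Klra8 (-0.081 without T2D 1 and 0.129 without T2D 3, and -0.087 without cells with a B or myeloid UMI) and Klra9 (0.013 with the gate by Ncr1 alone). Klre1 in effector T cells was at -0.032 without Con 3, 0.290 without Con 1 and -0.23 without a Cd8 UMI, where the called Klrk1 and Klrc1 also reversed, at -0.24 and -0.32. In gamma-delta T cells Klrc1 was at -0.22 without T2D 1 and 0.40 without T2D 3, Klrd1 at 0.90 with fewer than 2 Ccl5 UMIs, and Klrk1 at 0.077 without Con 2, -0.25 without Con 3, 0.063 with at least 2 Trdc UMIs and 0.44 with fewer than 2 Ccl5 UMIs. Members of lower level changed sign too with a library left out, among them Klrc3 in NK cells (-0.47 to 0.49) and Klra8 in effector T cells (-0.19 to 1.33). Klrk1 in effector T cells kept its call in every setting tried but the cells without a Cd8 UMI.

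The replicate numbers of the titles were tried as a block. Same-numbered libraries did not deviate together in the gates (correlations across genes of at most 0.076), and over all kept cells they did so in pairs 2 and 3 (0.417 and 0.355) but not in pair 1 (-0.238). Not every pair passed 0.1, so the libraries were taken to share only a number, although in effector T cells every library correlated best with its own number. With the replicate block, 7 members were called in effector T cells, and 756 genes against 518. Klrk1, Klrc1, Klrg1, Klra2 and Klra4 were called higher, and Klra7 and Klra9 lower. Without TMM scaling the median log2 difference of all genes between NK and effector T cells moved from 0.00 to 0.11. Precision is limited by 3 libraries per group and by gates of 74 to 222 NK or gamma-delta T cells per library; members with few UMIs could not be tested there.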

Other observations

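Outside the 3 gates the family was present at low levels. In other T cells the members summed to 195, 183 and 186 CPM in Con and 239, 240 and 218 CPM in T2D, with no overlap, and Klrd1 made up most of it, at 141 ± 6.72 against 165 ± 13.9 CPM (SD, n = 3). In B cells, used here as the background, the members summed to 36.7 ± 2.41 CPM in Con and 48.6 ± 6.64 CPM in T2D. The origin of these UMIs was not tested. These sums were not tested.

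Klra2, the Ly49 gene of myeloid cells, measured 346, 388 and 348 CPM in Csf1r-positive cells of the Con libraries and 371, 379 and 392 CPM in those of the T2D libraries, and the groups overlapped.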
